A study of Mus musculus with 12 samples.

Results

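The genes described here build fatty acids and assemble them into triglyceride: 35 genes of fatty acid synthesis, elongation, desaturation and glycerolipid assembly. They were taken by gene symbol from a table of read counts for 54532 mouse genes, and all 35 were found there and tested. Sequencing of messenger RNA was done on C2C12, an established mouse skeletal muscle myoblast line. Confluent dishes received perfluorooctanesulfonate (PFOS, a persistent fluorinated surfactant) for 24 h at 2 or 6 µM, or no PFOS (0 µM), with 4 libraries per dose. No label ties the libraries to independent cultures, so each p-value below measures the spread between these libraries, which may be technical.

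Cytosolic fatty acid synthesis starts from acetyl-CoA, which ATP citrate lyase makes from citrate, and acetyl-CoA carboxylase turns acetyl-CoA into the malonyl-CoA that fatty acid synthase uses to build palmitate. Enzymes of the endoplasmic reticulum lengthen the product in a cycle of condensation, reduction, dehydration and reduction, and desaturases insert double bonds. Acyl chains are then placed on glycerol 3-phosphate by glycerol-phosphate and lysophosphatidate acyltransferases, the phosphate is removed by lipins, and diacylglycerol acyltransferases add the last chain of triglyceride. The transcription factor SREBP-1, encoded by Srebf1, is known to activate many of these genes.

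The libraries held between 30206155 and 50351082 counts. Levels are given as CPM, counts scaled to a common library size with the trimmed mean of M-values (TMM), and 4 values in a row are replicates 1 to 4 in that order. Distance from the dose mean was measured as the root mean square in log2 of CPM plus 1, over all tested genes. The libraries farthest from their group were 0 µM replicate 1 (0.180), 6 µM replicate 2 (0.162) and 6 µM replicate 3 (0.153), while the other 9 had 0.134 to 0.151. These are called the 3 deviating libraries below, and were also left out together. Leaving them out lowers the number of libraries at 0 and 6 µM, so a lost call does not by itself mark that gene. All 8 myoblast markers were expressed, with a summed level of 601 to 697 CPM at 0 µM, 604 to 648 at 2 µM and 571 to 621 at 6 µM. Of these, Myod1, Myog, Cdh15 and Chrna1 fell at 6 against 0 µM. Of 10 adipocyte markers 3 were expressed highly enough to be tested, Adipoq and Retn were at 0 in every library, and the summed level was 24.0 to 28.0 CPM, 28.3 to 33.4 CPM and 31.2 to 35 CPM in order of dose. Nearly all of that sum came from Pparg, Fabp4 and Cebpa, with means of 16.0, 5.80 and 4.21 CPM at 0 µM. Its rise is therefore not separate from the changes of Pparg and Fabp4 given next. Pparg, which encodes the adipogenic receptor PPARγ, rose 1.33-fold (95% interval 1.18 to 1.51, edgeR adjusted p = 0.00336), and Fabp4, a fatty acid binding protein gene, rose 1.38-fold (95% interval 1.13 to 1.68, edgeR adjusted p = 0.0385). Pparg was called at 2 against 0 µM too (edgeR adjusted p = 0.0490), but not when any 1 library was left out (0.0506 to 0.150) or without the 3 deviating libraries (0.108). The call of Fabp4 ended without any 1 of 0 µM replicates 2, 3 and 4 and 6 µM replicates 1, 2 and 3 (0.0519 to 0.123) and without the 3 deviating libraries (0.377), and that of Cdh15 ended without 7 of the 12 libraries, 1 at a time (0.0508 to 0.128), and without the 3 deviating libraries (0.155). Cebpa, the third adipocyte marker tested, named here to complete that list, was at 4.21 ± 1.04, 3.76 ± 0.538 and 3.77 ± 0.310 CPM (SD, n = 4) in order of dose and was not called (edgeR adjusted p = 0.762 at 2 against 0 µM and 0.692 at 6 against 0 µM). Markers of hepatocytes summed to at most 0.208 CPM, macrophage markers to 8.76 to 13.3 CPM and endothelial markers to 4.59 to 7.17 CPM. In bulk RNA, a change in the number of cells of one kind and a change in RNA per cell cannot be told apart, and the part of these marker levels in the results below was not tested.

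At 6 µM against no PFOS, 18 of the 35 genes rose and none fell, and all 6 desaturation and hydroxylation genes of the 35 rose. Among 7 tested elongation and desaturation genes outside the 35, described below, 0 rose and 1 fell. The lowest of these averaged 0.301 to 1.18 CPM at 0 µM, where small changes can hardly be called. As 4.58% of all tested genes rose, 0 of 7 is near that share and makes no contrast with the 6. The genes that rose were Fasn, Acaca, Acly and Acss2 (4 of 7 for synthesis), Elovl5, Elovl6, Tecr and Hsd17b12 (4 of 9 for elongation), Scd1, Scd2, Fads1, Fads2, Fads3 and Fa2h (6 of 6 for desaturation and hydroxylation) and Gpat3, Agpat3, Lpin1 and Dgat2 (4 of 13 for glycerolipid assembly). A gene was called when edgeR's quasi-likelihood test gave it a Benjamini-Hochberg adjusted p under 0.05 over all 16038 genes tested. Of all those genes 8.24% were called in this comparison, 4.58% higher and 3.66% lower. That balance over all genes turned with upper-quartile scaling, from 735 higher and 587 lower to 598 higher and 662 lower, while 14 of the 35 genes rose and none fell. The median log2 difference was 0.13 for the 35 genes and -0.02 for all tested genes. In 16 of the 35 genes every 6 µM library lay above every 0 µM library, and in none did all lie below, against 6.39% and 6.15% of all tested genes. Most changes were modest: apart from Fa2h at 2.19-fold and Gpat3 at 1.53-fold, the genes rose between 1.10- and 1.40-fold. Without the 3 deviating libraries, 9 genes were called, which were Fasn, Acaca, Acly, Acss2, Scd1, Scd2, Fads3, Agpat3 and Lpin1. In that run calls over all genes went from 1322 of 16038 to 710 of 16912. Leaving out each library in turn gave 13 to 17 of the 35 genes and 918 to 1343 of all genes. Upper-quartile scaling ended the calls of Fads1, Fads2, Tecr and Elovl6 (edgeR adjusted p of 0.0583 to 0.0791), and a fit of the 0 and 6 µM libraries alone those of Elovl5, Fads1, Fads2 and Tecr (0.0505 to 0.0777).

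Fewer of the 35 genes were called at the lower dose and between the doses. At 2 against 0 µM, 5 rose and none fell: Fads3, Fa2h, Gpat3, Agpat3 and Dgat2, which are desaturation, hydroxylation and glycerolipid genes, while 0 of 7 synthesis and 0 of 9 elongation genes were called. The share called among all tested genes was 2.35%, with 1.61% higher and 0.742% lower, and the medians were 0.03 for the 35 genes and -0.01 for all. Groups did not overlap in 8 genes, all higher, against 4.77% of all genes higher and 3.6% lower. Between 6 and 2 µM, Fasn, Acaca, Acly, Elovl6, Scd1, Agpat3 and Lpin1 rose and none fell, where 1.11% of all genes were called, 0.561% higher and 0.549% lower, and the medians were 0.07 and -0.0046. Here 11 genes had all 6 µM libraries above all 2 µM libraries, and in 1 gene, Acacb, all were below, against 4.45% and 4.15% of all genes. The 3 comparisons share libraries, so their calls are not independent. Several calls ended when 1 library was left out, which also lowers the number of libraries. Without 2 µM replicate 4 Agpat3 alone was called at 2 against 0 µM, while calls over all genes went from 377 to 106. Without 0 µM replicate 2 or 2 µM replicate 2 or 3, 2 of the 35 genes were called, and 203, 213 and 269 of all genes. At 6 against 2 µM, 4 of the 35 were called without 2 µM replicate 4 or 6 µM replicate 3 or 4. Over all genes these runs called 82, 93 and 82, against 178 with every library.

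**Figure D1:**
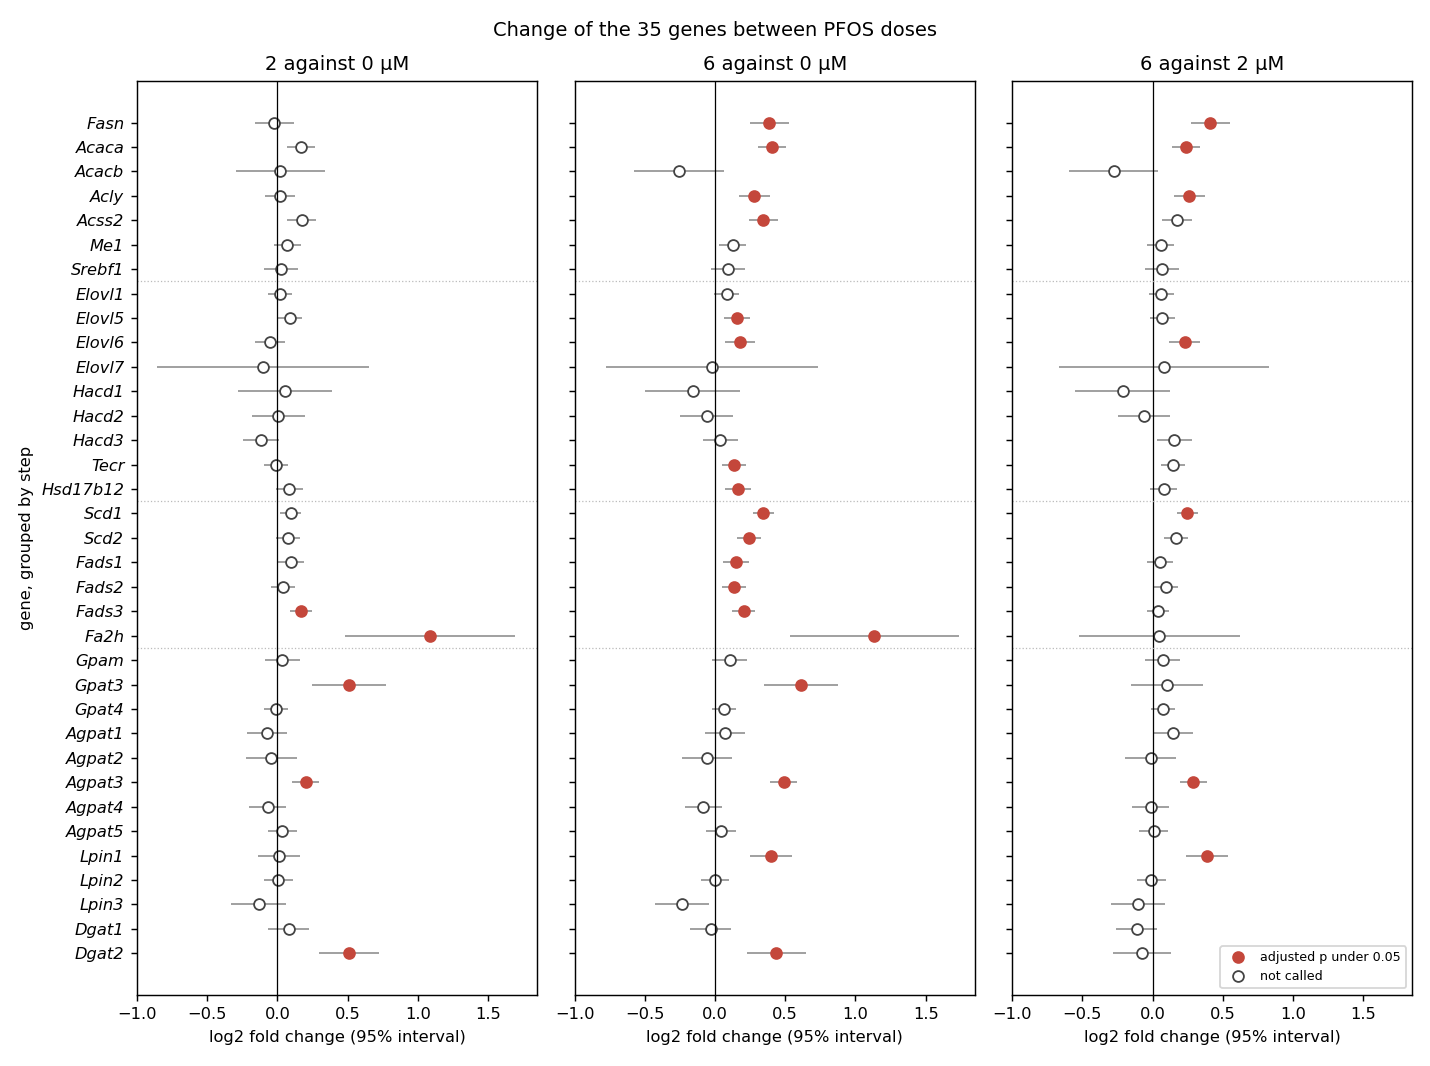
Log2 fold change of each of the 35 genes (x axis) with its 95% interval, grouped by step (y axis), for 2 against 0, 6 against 0 and 6 against 2 µM PFOS, with 4 libraries per dose and filled points for genes called at an adjusted p under 0.05. All filled points lie to the right of 0: 5, 18 and 7 genes in the 3 panels.

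Levels of different genes were compared per kilobase of the gene length that the table gives. Without PFOS, stearoyl-CoA desaturase 2 was the highest of the 35, with Scd2 at 672 ± 39.2 CPM per kilobase (mean ± SD, n = 4), above Tecr at 245 ± 15.5, and it held 43.1% of the summed CPM of the 35 genes. Scd1 at 161 ± 4.94 and Fads2 at 156 ± 5.93 CPM per kilobase followed and overlapped in their libraries, as did Fads1 at 94.8 ± 5.32 and Fads3 at 90.7 ± 2.65. The length of Fads2 in the table is only 1508 bases, so its rank depends on that length. Fasn stood further down at 36.3 ± 4.70 CPM per kilobase, above Acaca at 8.41 ± 0.550. From Hacd2, Dgat2, Agpat5, Lpin1 and Lpin3 to Hacd1 and Lpin2, levels lay between 4.82 and 5.84 CPM per kilobase and each overlapped its neighbour. The lowest were Acacb at 0.661 ± 0.106, Fa2h at 0.401 ± 0.136 and Elovl7 at 0.271 ± 0.0555 CPM per kilobase, and the last had only 27 to 78 counts per library. Together the 35 genes took 0.852% ± 0.0393 of the scaled counts at 0 µM, 0.890% ± 0.00848 at 2 µM and 0.999% ± 0.0403 at 6 µM (SD, n = 4). The 6 µM libraries, at 0.940% to 1.03%, all lay above the 0 µM libraries at 0.810% to 0.905%.

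**Figure D2:**
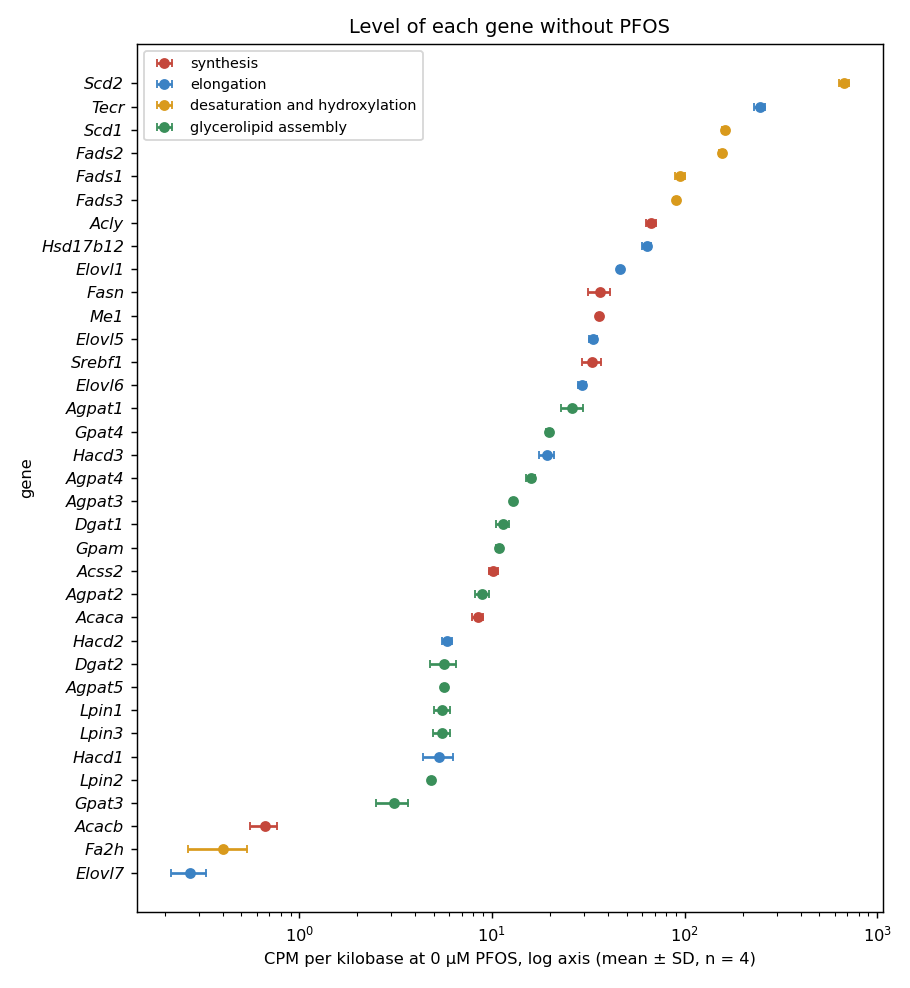
Level without PFOS of each of the 35 genes (y axis) in CPM per kilobase on a log axis (x axis), as mean ± SD over 4 libraries and coloured by step. Desaturases hold 5 of the 6 highest places, and Acacb, Fa2h and Elovl7 lie below 1 CPM per kilobase.

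Fasn and Acly, at both ends of palmitate synthesis, were called between 2 and 6 µM and not between 0 and 2 µM. Fasn, the fatty acid synthase gene (ENSMUSG00000025153, minus strand of chromosome 11 from 120805846 to 120824547, GRCm38), was at 346, 388, 386 and 469 CPM without PFOS, 416, 373, 407 and 366 CPM at 2 µM and 520.4, 478, 527 and 551 CPM at 6 µM. It rose 1.31-fold (95% interval 1.19 to 1.44, edgeR adjusted p = 0.000685) at 6 against 0 µM and 1.33-fold at 6 against 2 µM (edgeR adjusted p = 0.00165), with a 95% interval of 0.894 to 1.08 for the ratio of 2 to 0 µM. All 6 µM libraries lay above all others, although 0 µM replicate 4 came close to 6 µM replicate 2. Acly, which makes cytosolic acetyl-CoA from citrate, was at 334, 349.6, 349 and 385 CPM without PFOS, 379, 365, 352 and 340.3 CPM at 2 µM and 442, 384, 443 and 453 CPM at 6 µM. It rose 1.22-fold (95% interval 1.13 to 1.31, edgeR adjusted p = 0.00138) at 6 against 0 µM, and 6 µM replicate 2 was the single 6 µM library within the range of the 0 µM group.

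Acaca and Acss2 had middle levels at the middle dose. Acaca encodes acetyl-CoA carboxylase 1, the cytosolic enzyme that makes malonyl-CoA. Its levels were 148, 134, 139 and 155 CPM without PFOS, 161, 162, 164 and 158 CPM at 2 µM and 190, 178, 196 and 196 CPM at 6 µM, so the 3 doses did not overlap. Acaca rose 1.32-fold (95% interval 1.23 to 1.42, edgeR adjusted p = 9.98e-06) at 6 against 0 µM and 1.18-fold at 6 against 2 µM (edgeR adjusted p = 0.0128), while 2 against 0 µM was not called (adjusted p = 0.0708). Acss2, which makes acetyl-CoA from acetate, was at 98.4, 106, 98.97 and 110.5 CPM, 118, 120.1, 112 and 116 CPM and 134, 120.5, 132 and 139 CPM in order of dose. It rose 1.27-fold (95% interval 1.18 to 1.37, edgeR adjusted p = 0.000117) at 6 against 0 µM, and neither step was called by itself (edgeR adjusted p = 0.0820 at 2 against 0 µM and 0.112 at 6 against 2 µM). Without 0 µM replicate 4, both Acaca and Acss2 were called at 2 against 0 µM (0.0272 and 0.0479), as they were by DESeq2 (0.0203 and 0.0280), and without 6 µM replicate 2 Acss2 was called at 6 against 2 µM (0.0386). Reads of Acss2 share a locus with Gss and Ggt7 on the opposite strand, whose counts were 16.2% and 13.8% of those of Acss2. Beside Acaca, its paralog Acacb, whose product sits at mitochondria, was low at 6.37 ± 1.03, 6.46 ± 0.115 and 5.33 ± 1.08 CPM (SD, n = 4) and was not called (adjusted p = 0.356 at 6 against 0 µM). Of the summed level per length of both carboxylase genes, Acaca held 92.7% ± 1.246 at 0 µM, 93.4% ± 0.0368 at 2 µM and 95.3% ± 0.812 at 6 µM.

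The other synthesis genes were not called. Srebf1 was at 156, 191, 195 and 202 CPM without PFOS, 197, 193, 187 and 180.2 CPM at 2 µM and 202, 198, 193 and 199.9 CPM at 6 µM. Apart from 0 µM replicate 1 at 156 CPM the libraries overlapped between doses. The 95% interval for 6 against 0 µM was 0.981 to 1.16 (edgeR adjusted p = 0.384), which holds no change as well as a rise of the size seen in Elovl5. A gene count does not separate the SREBP-1a and SREBP-1c transcripts, and Rai1, on the opposite strand of the same locus, had 41.0% as many counts. Me1, the cytosolic malic enzyme that supplies NADPH, was at 138 ± 2.23, 145 ± 5.47 and 151 ± 8.77 CPM in order of dose. Its 6 µM libraries all lay above its 0 µM libraries, with an edgeR adjusted p of 0.0989 and 0.0473 by DESeq2.

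**Figure D3:**
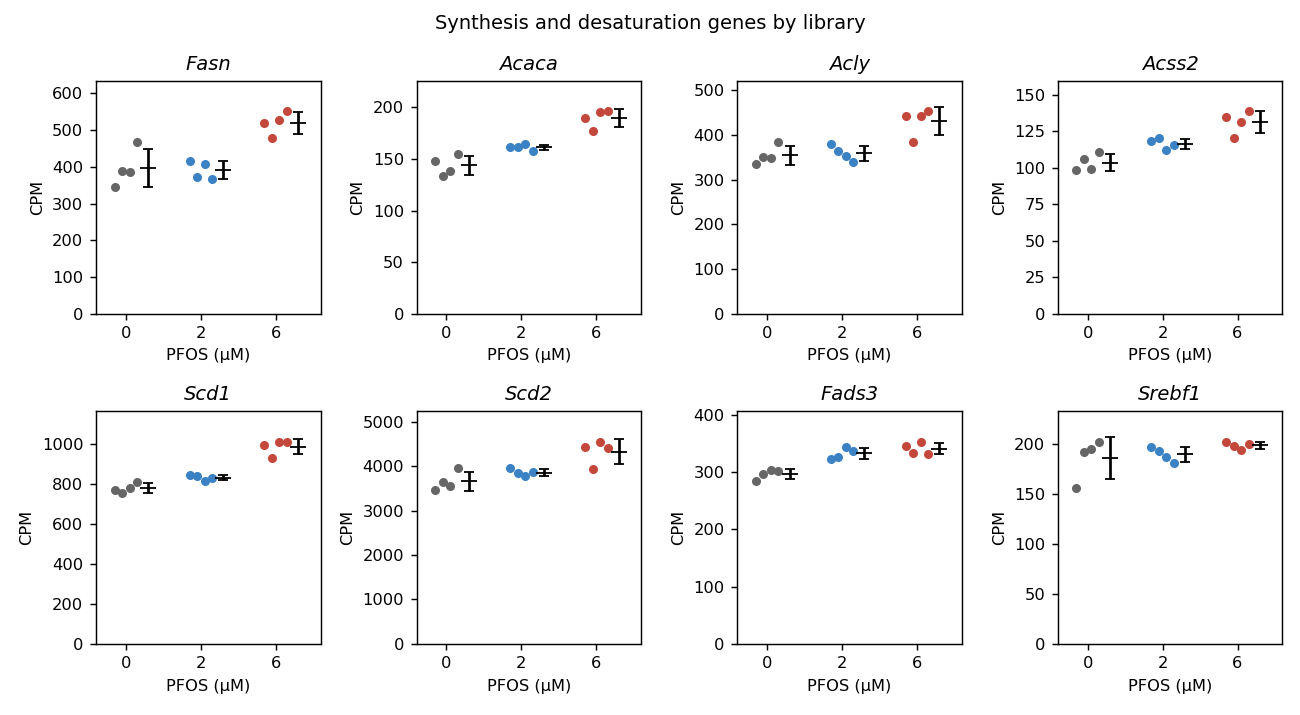
CPM (y axis, from 0) by PFOS dose (x axis) for 8 synthesis and desaturation genes, with a point for each library and mean ± SD beside it (n = 4). Fasn and Acly are higher at 6 µM than at the other doses, Acaca and Acss2 lie in between at 2 µM, and Srebf1 overlaps across doses.

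All 6 desaturation and hydroxylation genes among the 35 rose at 6 µM. Scd1 and Scd2 encode stearoyl-CoA desaturases, which make oleate and palmitoleate from saturated acyl-CoA. Scd1 was at 770.2, 756, 783 and 812 CPM without PFOS, 846, 843, 815 and 831 CPM at 2 µM and 996, 932, 1014 and 1013 CPM at 6 µM. It rose 1.27-fold (95% interval 1.20 to 1.33, edgeR adjusted p = 2.07e-06) at 6 against 0 µM and 1.19-fold at 6 against 2 µM (edgeR adjusted p = 0.000605). The doses did not overlap, although 2 against 0 µM was not called (adjusted p = 0.201). Scd2 was at 3476, 3657, 3566 and 3968 CPM, 3961, 3844, 3781 and 3865 CPM and 4433, 3937, 4562 and 4407 CPM in order of dose. It rose 1.18-fold (95% interval 1.11 to 1.255, edgeR adjusted p = 0.000658) at 6 against 0 µM, and 6 µM replicate 2 lay below the highest 0 µM library, replicate 4. At 6 against 2 µM its edgeR adjusted p was 0.0515, just outside the threshold, but the gene was called when 6 µM replicate 2 (0.00404), 0 µM replicate 4 (0.0175) or 0 µM replicate 1 (0.0291) was left out, without the 3 deviating libraries (0.0121) and by DESeq2 (0.0221). Of the summed level per length of both genes, Scd1 held 19.4% ± 0.638 at 0 µM and 20.5% ± 0.452 at 6 µM (SD, n = 4). The paralogs are similar in sequence, so reads may be split between them.

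Fads1, Fads2 and Fads3 also rose at 6 µM. Fads1 and Fads2 encode the delta-5 and delta-6 desaturases of polyunsaturated fatty acid synthesis, and Fads3 a related desaturase that acts on sphingoid bases. Fads3 was at 284, 296, 303 and 302 CPM without PFOS, 323, 326, 344 and 337 CPM at 2 µM and 346, 333, 353 and 332 CPM at 6 µM. It rose 1.12-fold (95% interval 1.06 to 1.19, edgeR adjusted p = 0.0233) at 2 against 0 µM and 1.151-fold at 6 against 0 µM (edgeR adjusted p = 0.00169), with both treated groups above all 0 µM libraries. Its call at 2 µM ended without 2 µM replicate 3 (0.0834) or 4 (0.0948) and without the 3 deviating libraries (0.0520). Fads1, at 328 ± 18.4, 350.2 ± 12.1 and 363 ± 12 CPM (SD, n = 4), rose 1.11-fold (95% interval 1.04 to 1.18, edgeR adjusted p = 0.0357) at 6 against 0 µM. Fads2, at 235 ± 8.94, 242 ± 6.38 and 258 ± 10.2 CPM, rose 1.10-fold (95% interval 1.03 to 1.17, edgeR adjusted p = 0.0486) at 6 against 0 µM. Both calls were near the threshold: that of Fads1 ended without any 1 of 0 µM replicates 1 and 2 and 6 µM replicates 1, 2 and 3 (adjusted p of 0.0801 to 0.0966), and that of Fads2 without any 1 library except 0 µM replicate 4 and 6 µM replicate 2 (0.0529 to 0.153). The 5 desaturase genes all lie on chromosome 19 (GRCm38), Fads3, Fads2 and Fads1 between 10041548 and 10196870, and Scd2 and Scd1 between 44293676 and 44407709.

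Fa2h, which encodes fatty acid 2-hydroxylase, an enzyme of sphingolipid acyl chains, had the largest fold and the fewest counts of the genes that rose, 25 to 169 per library. Its levels were 0.765, 1.56, 1.55 and 0.945 CPM without PFOS, 1.47, 3.39, 2.44 and 3.03 CPM at 2 µM and 3.02, 3.23, 2.497 and 1.96 CPM at 6 µM. At 6 against 0 µM Fa2h rose 2.19-fold (95% interval 1.45 to 3.33, edgeR adjusted p = 0.0168), and every 6 µM library lay above every 0 µM library. At 2 against 0 µM it rose 2.12-fold with an edgeR adjusted p of 0.0496, and 2 µM replicate 1 lay among the 0 µM libraries. The call at 2 µM ended without any 1 library except 2 µM replicate 1 and 6 µM replicates 2 and 4 (0.0553 to 0.180) and without the 3 deviating libraries (0.105), and that at 6 µM only without the 3 deviating libraries (0.177).

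Among the elongation genes 4 rose at 6 against 0 µM, with fitted folds below those of the synthesis genes that rose. Elovl6 encodes the elongase that takes palmitate to stearate. It was at 192, 178, 198 and 187 CPM without PFOS, 172, 188, 190.2 and 178 CPM at 2 µM and 193, 227, 208 and 225 CPM at 6 µM, and 6 µM replicate 1 lay within the 0 µM range. It rose 1.13-fold (95% interval 1.05 to 1.22, edgeR adjusted p = 0.0385) at 6 against 0 µM and 1.17-fold at 6 against 2 µM (edgeR adjusted p = 0.0324). Elovl5, the elongase of polyunsaturated chains, was at 118 ± 5.24, 125 ± 3.77 and 132 ± 2.54 CPM (SD, n = 4) and rose 1.11-fold (95% interval 1.05 to 1.19, edgeR adjusted p = 0.0294). Hsd17b12, which encodes the 3-ketoacyl-CoA reductase, was at 154 ± 8.31, 163 ± 6.41 and 172 ± 3.59 CPM and rose 1.12-fold (95% interval 1.05 to 1.20, edgeR adjusted p = 0.0268). Tecr, which encodes the enoyl-CoA reductase that ends each round, was at 537 ± 34.0, 534 ± 10.4 and 590.5 ± 15.7 CPM and rose 1.10-fold (95% interval 1.03 to 1.17, edgeR adjusted p = 0.0463).

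While the 4 synthesis calls at 6 against 0 µM held in every alternative run, each of these elongation calls ended in some of them. The call of Elovl6 at 6 against 0 µM ended without 0 µM replicate 2 or 4 or 6 µM replicate 2, 3 or 4 (adjusted p of 0.0520 to 0.126), and that at 6 against 2 µM without 2 µM replicate 1, 2 or 4 or 6 µM replicate 2, 3 or 4 (0.0568 to 0.130) or the 3 deviating libraries (0.147). That of Elovl5 ended without 0 µM replicate 2 or 3 or 6 µM replicate 1, 2 or 4 (0.0599 to 0.101), and that of Hsd17b12 without 0 µM replicate 3 or 4 or 6 µM replicate 1 or 3 (0.0709 to 0.0840). For Tecr the call held only without 0 µM replicate 4, 2 µM replicate 3 or 6 µM replicate 2, and was lost without any other 1 library (0.0513 to 0.120). At 6 against 2 µM Tecr was called only in a few alternatives, among them without 0 µM replicate 1 (0.0321) and by DESeq2 (0.0324). The dehydratase genes of the cycle, Hacd1, Hacd2 and Hacd3, were not called in any comparison, with means of 11.3, 21.9 and 52.2 CPM at 0 µM and 10.2, 21.02 and 53.6 CPM at 6 µM. Elovl1, an elongase of very long saturated chains, was at 125 ± 2.65 CPM without PFOS and 133 ± 2.03 CPM at 6 µM and was not called (edgeR adjusted p = 0.265). Cdc20, on the opposite strand at the same locus, had 123.1% of the counts of Elovl1. Elovl7, at 1.09 ± 0.223 and 1.07 ± 0.509 CPM, had too few counts to show a small difference, with a 95% interval of 0.584 to 1.66 for the ratio of 6 to 0 µM.

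In glycerolipid assembly, 1 gene of each enzyme family was called at 6 against 0 µM. For the entry step, Gpat3, a glycerol-phosphate acyltransferase of the endoplasmic reticulum, was at 11.4, 10.8, 12.97 and 8.11 CPM without PFOS, 14.4, 14.9, 14.4 and 18.0 CPM at 2 µM and 16.0, 20.04, 15.5 and 14.7 CPM at 6 µM. It rose 1.42-fold (95% interval 1.19 to 1.71, edgeR adjusted p = 0.0341) at 2 against 0 µM and 1.53-fold at 6 against 0 µM (edgeR adjusted p = 0.00343), and both treated groups lay above all 0 µM libraries. The call at 2 µM ended without 0 µM replicate 2 or 4 or 2 µM replicate 2 or 4 (0.0721 to 0.168), and that at 6 µM without the 3 deviating libraries (0.0577). The mitochondrial paralog Gpam, at 41.6 ± 1.501 and 44.7 ± 1.43 CPM at 0 and 6 µM, and Gpat4, at 132 ± 5.35 and 138 ± 2.17 CPM, were not called, with 95% intervals of 0.987 to 1.17 and 0.985 to 1.11 for the ratio. Per length, Gpat3 made up 6.95% to 10.98% of the 3 paralogs at 0 µM, 11.6% to 14.1% at 2 µM and 11.8% to 14.9% at 6 µM.

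Agpat3 had the lowest adjusted p of the 35 genes at 6 against 0 µM. It encodes a lysophosphatidate acyltransferase and was at 97.5, 98.7, 102 and 100.2 CPM without PFOS, 122, 116, 116 and 104 CPM at 2 µM and 138, 142, 139 and 140.5 CPM at 6 µM. Agpat3 rose 1.40-fold (95% interval 1.31 to 1.501, edgeR adjusted p = 5.08e-07) at 6 against 0 µM, 1.149-fold at 2 against 0 µM (edgeR adjusted p = 0.0245) and 1.22-fold at 6 against 2 µM (adjusted p = 0.00154), and no 2 doses overlapped. It was called in all 3 comparisons. At 2 against 0 µM the call ended without 0 µM replicate 2 or 2 µM replicate 1, 2 or 3 (0.0605 to 0.0858) and without the 3 deviating libraries (0.0531). Its paralogs Agpat1, Agpat2, Agpat4 and Agpat5 were not called in any comparison and stood at 78.5, 18.9, 42.8 and 60.5 CPM at 0 µM and 82.6, 18.2, 40.4 and 62.4 CPM at 6 µM. Of the level per length of the 5 paralogs, Agpat3 held 17.4% to 19.9% at 0 µM, 19.6% to 22.9% at 2 µM and 23.5% to 24.3% at 6 µM.

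Lpin1, whose product is a phosphatidate phosphatase that makes diacylglycerol, was at 47.8, 53.1, 52.1 and 60.3 CPM without PFOS, 57.1, 53.9, 53.8 and 49.99 CPM at 2 µM and 73.0, 60.9, 72.4 and 74.3 CPM at 6 µM. It rose 1.32-fold (95% interval 1.19 to 1.46, edgeR adjusted p = 0.00103) at 6 against 0 µM and 1.31-fold at 6 against 2 µM (edgeR adjusted p = 0.00612), with a 95% interval of 0.909 to 1.12 for 2 against 0 µM. The 6 µM libraries lay above all others, and replicate 2 among them was close to 0 µM replicate 4. Lpin2 was at 59.0 ± 1.46, 59.3 ± 1.21 and 59.0 ± 1.24 CPM, with a 95% interval of 0.931 to 1.07 for the ratio of 6 to 0 µM. Lpin3 was at 20.3 ± 2.14, 18.5 ± 1.53 and 17.2 ± 1.54 CPM and was not called (edgeR adjusted p = 0.131). Per length, Lpin1 held 32.3% to 38.2% of the 3 lipins at 0 µM, 34.9% to 37.3% at 2 µM and 41.8% to 44.2% at 6 µM.

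Dgat2, one of the diacylglycerol acyltransferases that complete triglyceride, was at 13.8, 18.5, 20.1 and 16.9 CPM without PFOS, 21.8, 26.5, 23.7 and 26.8 CPM at 2 µM and 24.8, 21.5, 25.6 and 22.0 CPM at 6 µM. It rose 1.42-fold (95% interval 1.23 to 1.65, edgeR adjusted p = 0.00992) at 2 against 0 µM and 1.35-fold at 6 against 0 µM (edgeR adjusted p = 0.00904), and both treated groups lay above all 0 µM libraries. The call at 2 µM ended without 2 µM replicate 4 (0.0529), and that at 6 µM without the 3 deviating libraries (0.0857). Dgat1, whose product catalyses the same reaction and is not related to Dgat2 in sequence, was at 34.8 ± 2.65, 36.8 ± 2.595 and 34.1 ± 1.93 CPM and was not called, with a 95% interval of 0.883 to 1.08 for 6 against 0 µM. Of the level per length of both genes, Dgat2 held 32.9% ± 3.20 at 0 µM, 40.0% ± 3.68 at 2 µM and 40.6% ± 2.81 at 6 µM.

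**Figure D4:**
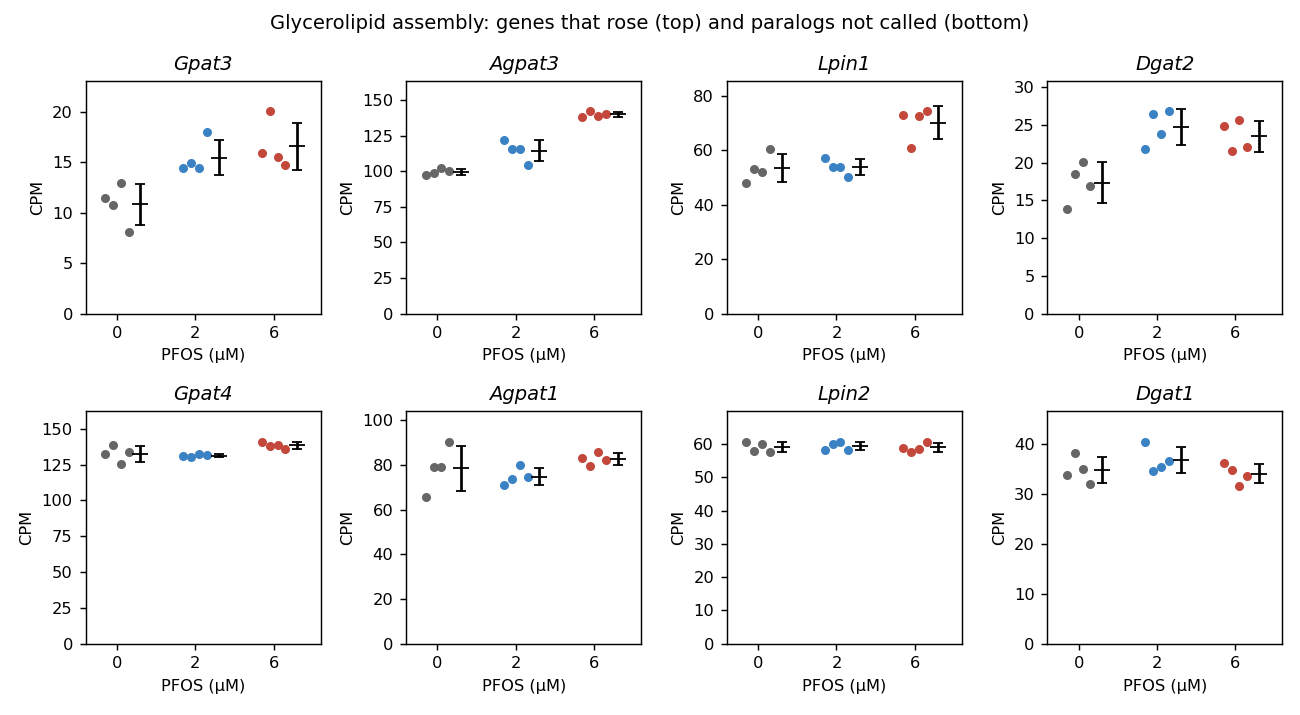
CPM (y axis, from 0) by PFOS dose (x axis) for 4 glycerolipid assembly genes that rose at 6 µM (top) and a paralog or same-reaction partner of each that was not called (bottom), with a point for each library and mean ± SD beside it (n = 4). Gpat3 and Dgat2 are already higher at 2 µM, Agpat3 climbs at each dose, and Lpin1 is higher at 6 µM than at 0 and 2 µM.

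The calls of different genes fell at different doses. Fasn, Acly, Elovl6, Lpin1, Acaca and Scd1 were not called at 2 against 0 µM. They were called at 6 against 2 µM, by 1.33-, 1.20-, 1.17-, 1.31-, 1.18- and 1.19-fold. Dgat2, Gpat3, Fa2h and Fads3 were called at 2 against 0 µM and not at 6 against 2 µM, where the 95% intervals of the ratio were 0.823 to 1.10, 0.898 to 1.28, 0.694 to 1.54 and 0.970 to 1.08. Agpat3 was called in all 3 comparisons. For Acaca and Scd1 every 2 µM library already lay above every 0 µM library, although that comparison was not called. At 6 against 2 µM the call of Acly ended without 2 µM replicate 4 or 6 µM replicate 1, 3 or 4 (0.0505 to 0.0671) and that of Acaca without 2 µM replicate 4 or 6 µM replicate 3 or 4 (0.0581 to 0.0678), while those of Fasn, Scd1, Agpat3 and Lpin1 held in every alternative run.

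Around these genes, a few regulators and supply enzymes also rose. Of 17 tested regulators of lipogenesis, 2 rose and none fell at 6 against 0 µM, or 11.8% against 4.58% of all tested genes higher, with a median log2 difference of 0.05. Insig1, which encodes an endoplasmic reticulum protein that retains SREBP precursors, was at 159.9, 178, 169.9 and 177 CPM without PFOS, 177, 165, 160.4 and 153 CPM at 2 µM and 207, 198, 204 and 199 CPM at 6 µM. It rose 1.18-fold (95% interval 1.10 to 1.26, edgeR adjusted p = 0.00250) at 6 against 0 µM and 1.23-fold at 6 against 2 µM (edgeR adjusted p = 0.00111), and its 6 µM libraries lay above all others. Srebf2, which encodes SREBP-2, the sterol-linked relative of SREBP-1, was at 613, 656, 670.1 and 722 CPM without PFOS and 775, 716, 732 and 757 CPM at 6 µM. Srebf2 rose 1.12-fold (95% interval 1.05 to 1.19, edgeR adjusted p = 0.0205), with 6 µM replicate 2 just below the highest 0 µM library. The call of Srebf2 ended without 0 µM replicate 1 or 6 µM replicate 1 or 4 (0.0567 to 0.0757), and that of Insig1 in none of the alternatives. Scap, at 45.7 ± 3.64 and 51.0 ± 1.48 CPM at 0 and 6 µM, and Insig2, at 106 ± 2.04 and 115 ± 9.22 CPM, were not called (edgeR adjusted p = 0.129 and 0.172). The liver X receptor genes Nr1h2, at 75.4 ± 4.63 and 68.8 ± 3.49 CPM, and Nr1h3, at 0.987 ± 0.352 and 0.887 ± 0.397 CPM, were not called either, nor was Mlxipl, which encodes the carbohydrate-responsive factor ChREBP and stayed under 1 CPM in every library.

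Of 11 tested genes that supply citrate, acetyl-CoA, malonyl-CoA or NADPH, 4 rose and none fell at 6 against 0 µM, or 36.4% against 4.58% of all tested genes higher, with a median log2 difference of 0.11. Pgd, of the pentose phosphate pathway, was at 112, 122, 119 and 118 CPM without PFOS, 122, 114, 111 and 111 CPM at 2 µM and 145, 138, 143 and 142 CPM at 6 µM, and it rose 1.21-fold (95% interval 1.13 to 1.28, edgeR adjusted p = 0.000393) at 6 against 0 µM. G6pdx, the first enzyme of that pathway, was at 132 ± 3.13, 132 ± 1.57 and 152 ± 5.14 CPM and rose 1.152-fold (95% interval 1.09 to 1.22, edgeR adjusted p = 0.00265). Both were called at 6 against 2 µM as well, and neither at 2 against 0 µM. Slc25a1, the mitochondrial citrate carrier gene, was at 124 ± 6.97, 129 ± 3.92 and 146 ± 8.01 CPM and rose 1.18-fold (95% interval 1.10 to 1.27, edgeR adjusted p = 0.00322). Me2, a mitochondrial malic enzyme gene, was at 266 ± 9.01, 303 ± 11.8 and 310.2 ± 14.9 CPM and rose at 2 against 0 µM by 1.14-fold (edgeR adjusted p = 0.0215) and at 6 against 0 µM by 1.17-fold (adjusted p = 0.00210). The call of Me2 at 2 against 0 µM ended without 0 µM replicate 3 or 2 µM replicate 2 or 4 (0.0762 to 0.0940), and that of G6pdx at 6 against 2 µM without 6 µM replicate 1 or 4 (0.0563 to 0.0666).

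**Figure D5:**
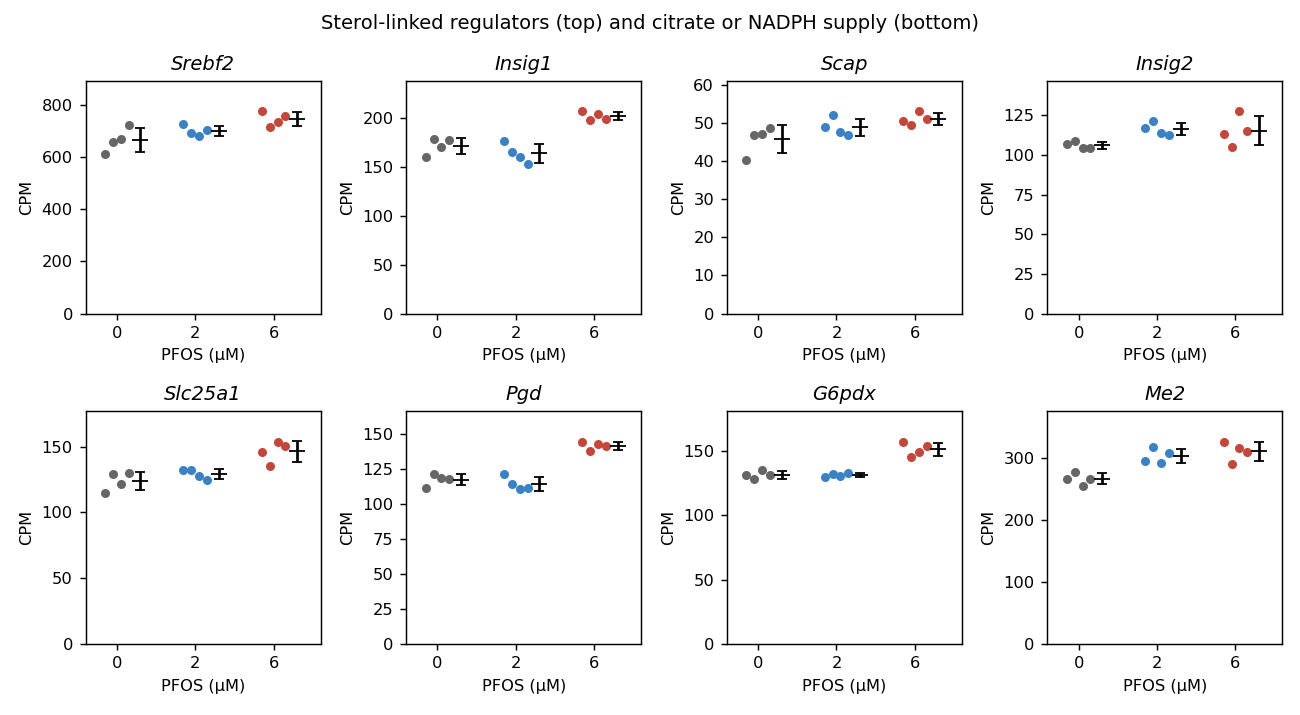
CPM (y axis, from 0) by PFOS dose (x axis) for 4 regulators of SREBP processing and sterol response (top) and 4 genes of citrate and NADPH supply (bottom), with a point for each library and mean ± SD beside it (n = 4). Insig1, Pgd and G6pdx lie higher at 6 µM than at 0 and 2 µM, with no overlap.

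The 33 tested genes of 3 other lipid lists gave 2 calls at 6 against 0 µM, or 6.06%, near the 8.24% of all tested genes. Among 17 tested genes of glycerol phosphate supply and other glycerolipid branches, none rose and 1 fell at 6 against 0 µM. This was Plpp1, a lipid phosphate phosphatase gene, at 38.9 ± 2.38 CPM without PFOS and 33.3 ± 1.57 CPM at 6 µM (log2 fold change of -0.23, edgeR adjusted p = 0.0460). The call of Plpp1 ended without any 1 library except 0 µM replicate 4 and 2 µM replicate 1 (0.0505 to 0.151), and without the 3 deviating libraries (0.185). Among 7 other elongation and desaturation genes, none rose and 1 fell: Hacd4, a relative of the dehydratases above, at 73.2 ± 2.48 and 63.9 ± 1.94 CPM (log2 fold change of -0.20, edgeR adjusted p = 0.0146). The call of Hacd4 ended without the 3 deviating libraries (0.0806). Of 9 tested genes of mitochondrial fatty acid synthesis, a separate pathway that makes octanoate for lipoic acid, edgeR's test called 0. An unadjusted p under 0.05 was found in 2 of them, both lower, and in 1732 higher and 1726 lower of all 16038 genes. On that measure the glycerolipid list had 3 higher and 2 lower, and the elongation and desaturation list 0 higher and 2 lower. The medians of these 3 lists were 0.07, -0.09 and -0.03.

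To show the sequence upstream of genes that rose, promoter windows were taken from RefSeq (GRCm38.p6), from 250 bases before to 50 after each start site. Windows were found for 27 of the 35 genes, 36 windows in all. On both strands, CCAAT, the box bound by NF-Y, was found in 17 of the 36 windows, in 16 genes, and in 37.4% of all 32851 windows. GGGCGG, the GC box bound by Sp1, was found in 23 of the 36, in 19 genes, and in 35.7% of all. The sterol regulatory element core TCACNCCAC was in 0 of the 36 and in 1.24% of all, and a direct repeat of AGGTCA spaced by 1 base, with at most 1 mismatch, was in 1 (Elovl1) and in 0.554% of all. A match describes the letters and is neither a binding site nor a cause, and the absence of one covers only this window and the pattern as written. For the sterol element core, 0 of 36 windows is near the 1.24% of all windows, and Scd1, Scd2 and Fads1 had no window. The 200 bases before the start site are shown for the 4 genes whose call at 6 against 0 µM held in every alternative and whose RefSeq start lies at the start of the gene in the table, with CCAAT and GGGCGG or their reverse complements in capitals.
Fasn, chr11:120824548-120824747, minus strand: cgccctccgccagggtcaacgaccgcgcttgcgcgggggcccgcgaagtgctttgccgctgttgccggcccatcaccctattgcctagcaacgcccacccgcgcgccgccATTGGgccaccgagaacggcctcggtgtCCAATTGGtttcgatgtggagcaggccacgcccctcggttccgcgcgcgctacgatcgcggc
Acly, chr11:100528001-100528200, minus strand: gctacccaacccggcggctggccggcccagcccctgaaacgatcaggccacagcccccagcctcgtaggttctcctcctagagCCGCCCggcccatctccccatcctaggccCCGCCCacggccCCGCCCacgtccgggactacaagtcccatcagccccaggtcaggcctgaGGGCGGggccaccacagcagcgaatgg
Fads3, chr19:10041348-10041547, plus strand: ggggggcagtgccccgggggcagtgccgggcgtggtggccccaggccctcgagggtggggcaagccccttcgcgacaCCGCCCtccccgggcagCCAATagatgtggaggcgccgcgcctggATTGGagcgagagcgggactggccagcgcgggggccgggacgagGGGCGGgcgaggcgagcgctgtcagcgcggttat
Lpin1, chr12:16610967-16611166, minus strand: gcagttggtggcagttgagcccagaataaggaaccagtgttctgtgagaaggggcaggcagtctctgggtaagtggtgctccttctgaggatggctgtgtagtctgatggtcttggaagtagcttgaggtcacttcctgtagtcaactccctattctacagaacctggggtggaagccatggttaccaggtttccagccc
The Fasn window held CCAAT at positions -90, -62 and -59 from the start site, the last pair overlapping on opposite strands, and no GC box. Acly held 4 GC boxes and no CCAAT before its start, Fads3 held 2 of each, and Lpin1 held neither. These 4 windows differ in their motif content, and its part in the changes was not tested.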

How the data were processed

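The authors deposited 1 table of raw whole-number read counts per gene for 12 libraries, with gene positions and lengths. HISAT2 is the aligner and GRCm39 the build named in the submitters' processing notes. What counted the reads, with which strand setting and annotation, is not given in the sources used here, so genes that overlap on opposite strands may share reads. The positions are not those of GRCm39: of 54409 genes shared with GENCODE M21, which is on GRCm38, 98.3% have identical positions. Of the 35 genes 29 do, and the other 6, all on chromosome 19, differ in start or end, so positions and lengths are given as in the table and named GRCm38.

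Dose was taken from sample titles. Tests on the deposited counts used edgeR 4.0.16 (R 4.3.3): filterByExpr left 16038 of 54532 genes, TMM factors scaled the libraries, and a quasi-likelihood model with 1 mean per dose (9 residual degrees of freedom) gave 3 comparisons with Benjamini-Hochberg adjustment over all tested genes. The common biological coefficient of variation was 10.8%. Standard errors are the log2 fold change over the square root of F, and 95% intervals use the test's degrees of freedom. The steps were also run on simulated counts, and that run is not used as support for any change reported here. The members and lists were chosen with earlier results of these data known, and no list test was run. All 35 genes are named. From other lists, genes called in any comparison could be named, and 7 regulators whatever their p (Srebf2, Scap, Insig1, Insig2, Mlxipl, Nr1h2 and Nr1h3). Alternatives were DESeq2 1.42.0, limma-voom 3.58.1, other scaling and filters, a replicate block and leaving out libraries. Of the lists, Hsd17b8 and Ept1 were not matched by symbol, and Thrsp, Acss1, Elovl2, Degs2, Gpd1, Mogat1 and Cds1 had too few counts to test. No promoter window was found for Scd1, Scd2, Fads1, Fa2h, Gpat4, Agpat5, Dgat1 and Dgat2.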

Additional observations from a re-analysis of the deposited data

Results flagged for a closer look

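In 5 of the 144 sets of 4 libraries tested (a gene at a dose), the extreme library lay far from the other 3, with a gap, as a share of the whole range, over Dixon's 95% limit for 4 values. Chance flags about 1 in 20 such sets. For Acly at 6 µM, replicate 2 was at 383.9 CPM and the others at 442 to 453 CPM. For Lpin1 at 6 µM, the same library was at 60.92 CPM and the others at 72.4 to 74.3 CPM. For Fads1 at 6 µM, replicate 4 was at 345.3 CPM and the others at 367 to 370.3 CPM. For Tecr at 2 µM, replicate 2 was at 549.1 CPM and the others at 527 to 530.2 CPM. For Gpat3 at 2 µM, replicate 4 was at 18.03 CPM and the others at 14.4 to 14.9 CPM.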

How the results depend on the processing

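No member fell in any of the 20 alternatives. At 6 against 0 µM, 9 of the 18 calls held in all of them: Fasn, Acaca, Acly, Acss2, Scd1, Scd2, Fads3, Agpat3 and Lpin1. At 2 against 0 µM none of the 5 did, and at 6 against 2 µM 4 of 7 did. Over all genes the calls were 377, 1322 and 178 at 2 against 0, 6 against 0 and 6 against 2 µM. DESeq2 called 692 genes at 2 against 0 µM and 391 at 6 against 2 µM, no count filter 631 and 401, and a fit of only the doses compared 307 at 6 against 2 µM. Leaving out 0 µM replicate 1 and 6 µM replicates 2 and 3 together was chosen after seeing the data. It gave 461 genes and 2 members at 2 against 0 µM, and 710 genes and 9 members at 6 against 0 µM. Leaving out each library in turn gave 106 to 490, 918 to 1343 and 82 to 259 genes and 1 to 5, 13 to 17 and 4 to 9 members. Upper-quartile scaling moved the calls at 2 against 0 µM from 258 higher and 119 lower to 184 and 134, and those at 6 against 0 µM from 735 higher and 587 lower to 598 and 662, and no scaling moved the median of all genes by over 0.0158 (log2). Of 2097 values of single members under an alternative, 101 lost a call, 22 gained one, and 72 that were uncalled throughout changed sign. Of 1194 values of 20 other named genes, 57 lost a call, 7 gained one and none with a call changed direction. The cause of these shifts was not tested. Genes of few counts, such as Elovl7 and Fa2h, have the widest intervals.

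Same-numbered libraries did not deviate together (correlations of -0.142 to 0.0646 over 12 pairs), so these values show no pairing by replicate number. Whether the libraries were handled in pairs cannot be told from them. With the replicate number as a block, 3 members were called at 2 against 0 µM, 15 at 6 against 0 µM and 7 at 6 against 2 µM. Over all genes this fit called 273, 1154 and 123, against 377, 1322 and 178 without the block.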

Other observations

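Among the 18 genes that rose at 6 against 0 µM, 0 µM replicate 1 was the lowest 0 µM library for 12 and 0 µM replicate 4 the highest for 10, including Fasn, Acaca, Acly, Acss2, Scd1, Scd2 and Lpin1. In the 6 µM group, replicate 2 was the lowest for 10, among them those same 7 genes, and the highest for 5, which were Elovl5, Elovl6, Fa2h, Gpat3 and Agpat3. These counts were made after the values were seen. Without 0 µM replicate 1 or without 6 µM replicate 2, 15 of the 35 genes were called at 6 against 0 µM, and without 0 µM replicate 4, 16. Over all genes these runs called 1306, 1199 and 1343 in that order, against 1322 with every library.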
